A study of Mus musculus with 2 samples.

Results

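The 10 genes followed here in cultured mouse keratinocytes are 9 secreted factors that act on blood vessels, lymphatic vessels and their supporting cells, and Flt1, a receptor for several of them. The members were Vegfa, Vegfb, Vegfc, Pgf, Flt1, Pdgfa, Pdgfb, Pdgfc, Adm and Edn1, each taken through every probe set whose only gene symbol was that of the member. These were 20 of the 45101 probe sets of the array, and 10 of the 18193 genes with a symbol. The genes were chosen by name with the ratios of these arrays already known, so they count as selected on the measured ratio of signals between the arrays, and their differences are given as a description, with no test. Each probe set reads a transcript with several short probes that are combined into a single signal.

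Primary cultures of keratinocytes, the cells that build the epidermis, were grown from newborn C57BL/6 mice. The control culture is titled MED1flox/flox, whose Med1 gene carries recombination sites, and its source label calls it wild-type. The other culture is titled MED1epi-/-, from mice that carry MED1flox/flox and K5Cre, a Cre recombinase under the keratin 5 promoter, which is active in basal keratinocytes. Each group has 1 Affymetrix array, and the labels do not give the number of mice behind a culture, so the spread between cultures is unknown. Precision is limited by the number of arrays. Med1, which encodes a Mediator subunit that links transcription factors to RNA polymerase II, read 462.7 in the control and 1039 on the other array, and all 7 of its probe sets were higher there. The labels do not say which part of the gene was deleted, and a probe set outside that part checks nothing, so that array is called the MED1-null-labelled array and every direction below is that of the label. Sex-linked transcripts differed as well, with Xist at 5461 and 55.7 and the Y-linked Eif2s3y at 4.2 and 2164, so sex and genotype label cannot be told apart.

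The VEGF proteins bind receptor tyrosine kinases on endothelial cells: VEGF-A binds the receptors encoded by Flt1 and Kdr, placental growth factor and VEGF-B bind that of Flt1, and VEGF-C binds that of Flt4 on lymphatic endothelium. PDGF chains form dimers that act on the PDGF receptors of pericytes and fibroblasts. Adrenomedullin, encoded by Adm, is a vasodilator peptide, and endothelin-1, encoded by Edn1, a vasoconstrictor peptide. The epidermis has no blood vessels of its own, and its keratinocytes are a known source of VEGF-A for the vessels of the dermis.

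Among the members, Adm, Pdgfb, Edn1 and Flt1 were at least 2-fold higher on the MED1-null-labelled array, and Vegfa was lower by somewhat less than that. Regulatory sequence is shown for those of these genes with an entry in the table of promoters, because their differences run in opposite directions. It is the 250 bases before the RefSeq transcription start in build GRCm38.p6, 5′ to 3′ on the strand of the gene. Capitals mark matches on either strand to GGGCGG, the GC box bound by Sp1, to GCGNGGGCG, a site of the EGR factors, to TATAAA, the TATA box, to TGANTCA, the AP-1 site, or to ACGTG, the core of a hypoxia response element.
Adm, chr7:110627407-110627656, plus strand: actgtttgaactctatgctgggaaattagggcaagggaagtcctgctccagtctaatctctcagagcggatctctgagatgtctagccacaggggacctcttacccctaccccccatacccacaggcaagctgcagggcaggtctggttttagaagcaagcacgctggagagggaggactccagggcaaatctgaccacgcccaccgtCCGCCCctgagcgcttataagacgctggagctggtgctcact
Edn1, chr13:42301226-42301475, plus strand: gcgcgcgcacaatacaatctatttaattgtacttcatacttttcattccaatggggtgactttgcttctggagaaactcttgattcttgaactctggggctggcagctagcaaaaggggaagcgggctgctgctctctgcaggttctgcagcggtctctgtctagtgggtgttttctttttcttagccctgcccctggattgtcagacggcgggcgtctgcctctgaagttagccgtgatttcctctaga
Flt1, chr5:147726012-147726261, minus strand: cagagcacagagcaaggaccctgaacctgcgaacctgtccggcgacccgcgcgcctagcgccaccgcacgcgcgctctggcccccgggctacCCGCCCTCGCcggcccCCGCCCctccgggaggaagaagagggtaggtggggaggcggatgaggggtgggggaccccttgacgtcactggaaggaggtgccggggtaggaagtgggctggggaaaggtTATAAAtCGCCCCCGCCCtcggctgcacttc
Vegfa, chr17:46032378-46032627, minus strand: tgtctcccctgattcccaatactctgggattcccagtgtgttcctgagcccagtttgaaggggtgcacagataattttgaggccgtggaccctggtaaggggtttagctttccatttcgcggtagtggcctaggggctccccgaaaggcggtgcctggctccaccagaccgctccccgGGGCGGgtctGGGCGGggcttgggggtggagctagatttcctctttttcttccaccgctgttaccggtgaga

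The Adm window held 1 GC box and that of Vegfa held 2, the latter starting 72 and 62 bases before the transcription start. The Flt1 window held 3 GC boxes, 2 EGR sites, each of which overlapped a GC box, and a TATA box that starts 31 bases before the start. None of the 5 motifs was in the Edn1 window. Neither the hypoxia core nor the AP-1 site was in any of these 4 windows, which says only that those letters are absent from them. Over the 32851 windows of the same length in the table, the GC box was in 32.7%, the EGR site in 4.7%, the TATA box in 12.4%, the AP-1 site in 6.75% and the hypoxia core in 16.6%. Of the 10 members, 9 had an entry, and Pdgfb did not. Vegfa has a further start in the table, which is not shown, and its window held 1 hypoxia core and 1 GC box. A match of letters is a description and not evidence of binding.

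The values are MAS5 signals, a linear brightness that was scaled to the same mean on both arrays. MAS5 subtracts a mismatch signal, and low values are noisy, so values below 67.7, the median of all probe sets other than controls, were raised to that floor before a ratio was taken. A ratio with 1 side at the floor is a lower bound, written as at least N-fold. Such a gene is measured only through the array where it is higher, so the direction of its ratio is fixed by that filter. The 6 members that reached the floor on both arrays were Vegfa, Vegfb, Pdgfa, Pdgfb, Adm and Edn1. Flt1 reached it only on the MED1-null-labelled array, and Vegfc, Pgf and Pdgfc on neither. In bulk RNA, fewer cells that make a transcript and less of it per cell cannot be told apart.

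**Figure D1:**
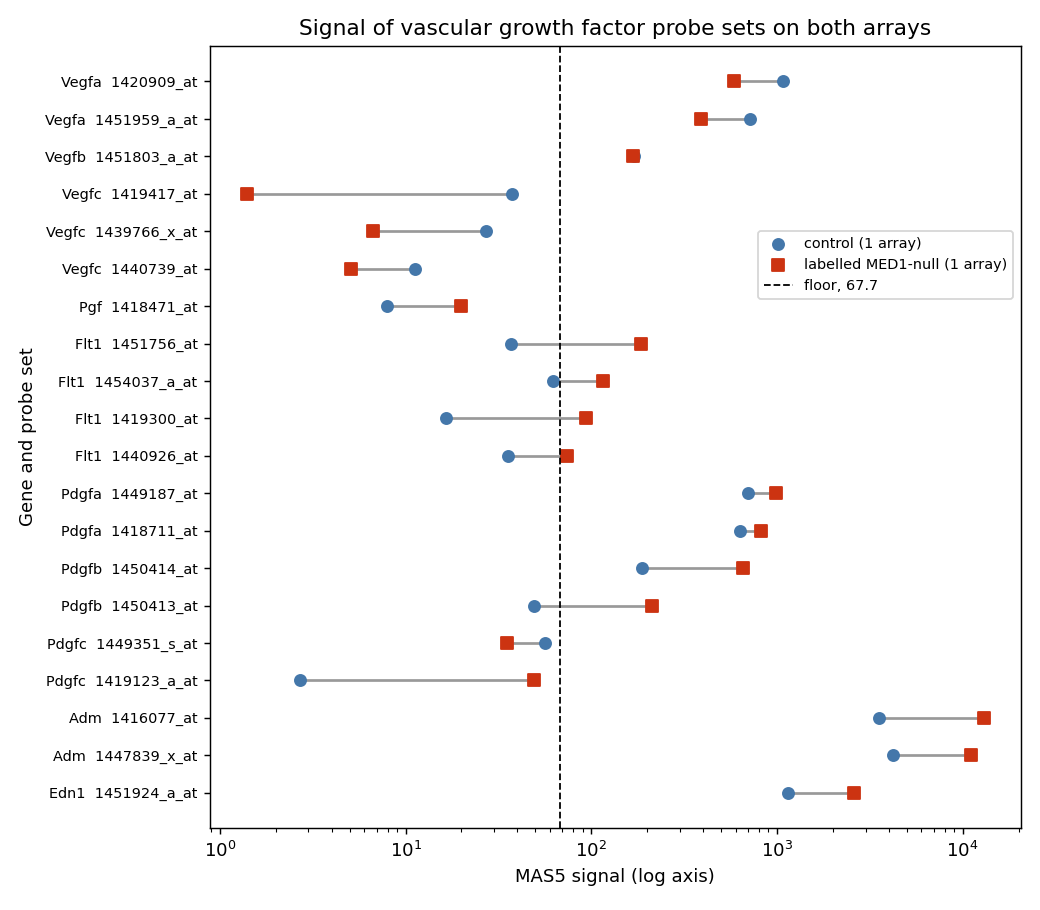
MAS5 signal (log axis) of the 20 probe sets of the 10 genes, with a circle for the control array, a square for the MED1-null-labelled array and a dashed line at the floor of 67.7; each point is 1 array, so there are no error bars. Both Adm, both Pdgfb and all 4 Flt1 probe sets have the square to the right, both Vegfa probe sets have it to the left, and all probe sets of Vegfc, Pgf and Pdgfc lie left of the floor.

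Vegfa, the main angiogenic factor of the epidermis, was lower on the MED1-null-labelled array. Its probe set of highest mean signal, 1420909_at, gave 1083 in the control and 587.4 on the other array, 1.84-fold lower (log2 ratio -0.88). The second, 1451959_a_at, read 716.5 and 390.5, 1.835-fold lower. Both probe sets thus gave a ratio of the same size, short of the 2-fold threshold. The Vegfa ratio lay 360 from the lowest among 11621 measured genes, those at the floor on at least 1 array. Of the 10409 genes at the floor on both arrays, 6.92% were at least 1.5-fold lower, as Vegfa was.

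Of the other VEGF ligands, Vegfb was nearly equal on the arrays, and Vegfc and Pgf were too low to compare. Vegfb, a ligand of the Flt1 receptor, read 169.0 and 167.0 on its only probe set, a log2 ratio of -0.02. All 3 probe sets of Vegfc, the lymphatic growth factor, were below the floor on both arrays. They read 37.3 and 1.4, 27.1 and 6.7, and 11.3 and 5.1, each lower on the MED1-null-labelled array but within the range where MAS5 values are noisy. The single probe set of Pgf, the placental growth factor, read 7.9 and 20.0, both below the floor. At this signal no level or difference could be stated for Vegfc or Pgf.

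Flt1, which encodes the VEGF receptor that binds VEGF-A, VEGF-B and placental growth factor and also has a soluble form that traps them, was higher on the MED1-null-labelled array. Its probe set 1451756_at read 36.9 and 186.2, at least 2.75-fold higher. The others read 61.9 and 116.3 (at least 1.72-fold), 16.6 and 93.7 (at least 1.38-fold), and 35.5 and 73.8 (at least 1.09-fold). On the control array all 4 were below the floor, and they were above it on the MED1-null-labelled array. Because Flt1 entered the measured genes through the array where it was higher, its direction was fixed by that filter. Among the 1212 genes that reached the floor on only 1 array, 3.05% were at least 2-fold higher on the MED1-null-labelled array. Those 1212 include genes that reached it only on the control array and so could not be higher. The share therefore understates that of genes which, like Flt1, reached it only on the MED1-null-labelled array. With the median over the 4 probe sets in place of the brightest, the Flt1 log2 ratio was 0.62 and no longer beyond 2-fold. Which probe sets read the soluble form was not analysed here.

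Pdgfb, the B chain of PDGF, which draws pericytes to vessels, was higher on the MED1-null-labelled array. The probe set 1450414_at read 186.7 and 655.6, 3.51-fold higher (log2 ratio 1.81). The probe set 1450413_at read 49.2, below the floor, and 212.3, at least 3.14-fold higher. Both probe sets were therefore at least 3-fold higher, and the Pdgfb ratio ranked 13 from the top of the 11621 measured genes. With a floor of 434.6, the 75th percentile, the control value is replaced by the floor and the log2 ratio is a bound of 0.59.

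The A chain gene Pdgfa, whose dimers act on the PDGF receptor alpha of fibroblasts, differed less. It read 696.6 and 990.9 on 1 probe set, 1.42-fold higher, and 632.4 and 818.9 on the other, 1.30-fold higher (log2 ratios 0.51 and 0.37). Both lay on the same side, within 2-fold. Of the genes at the floor on both arrays, 7.28% were at least 1.5-fold higher, a size Pdgfa did not reach. Pdgfc, whose product is secreted in a latent form, read 56.6 and 35.1 on 1 probe set and 2.7 and 49.0 on the other, all below the floor and in opposite directions. The PDGF chain genes thus ranged from a ratio of over 3-fold for Pdgfb to no measurable value for Pdgfc.

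Adm had the highest ratio of the 6 members at the floor on both arrays. The probe set 1416077_at gave 3530 in the control and 12984 on the MED1-null-labelled array, 3.68-fold higher (log2 ratio 1.88). The probe set 1447839_x_at, whose suffix marks possible shared sequence, read 4244 and 11060, 2.61-fold higher. Both probe sets were far above the floor on both arrays and both were beyond 2-fold. The Adm ratio ranked 10 from the top of the measured genes. Edn1, the endothelin-1 precursor gene, read 1149 and 2612 on its only probe set, 2.27-fold higher (log2 ratio 1.19), and ranked 106. The genes of the vasodilator and of the vasoconstrictor were both higher on the same array.

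Counted over all 10 members, 4 were at least 2-fold higher, none was at least 2-fold lower, 3 lay within 2-fold and 3 were below the floor on both arrays. Among all 18193 genes with a symbol, 1.04% passed 2-fold on the higher side and 1.42% on the lower side. These shares were 1.63% and 2.23% of the 11621 measured genes, and 1.47% and 2.05% of those at the floor on both arrays. The members were chosen with these ratios known, so nothing is read from their count against this background. Over the 7 measured members the median log2 ratio was 1.19, and over the 6 at the floor on both arrays it was 0.85, against 0.05 over the 10409 genes at the floor on both. The pooled SD of the log2 ratio between probe sets of a gene, over 4916 genes, was 0.31. The ratio was 6.15 times that SD for Adm, 5.93 for Pdgfb, 3.88 for Edn1, -2.89 for Vegfa, 1.66 for Pdgfa and -0.06 for Vegfb. Flt1 is left out of this comparison because its ratio is a lower bound. This SD covers differences between probe sets only and says nothing of cultures or animals. Edn1 and Vegfb have 1 probe set each, so they show no such differences of their own. The median of 1.19 includes Flt1, whose direction was fixed by the floor. Since the members were chosen with these ratios known, nothing is read from their medians or from these multiples either.

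**Figure D2:**
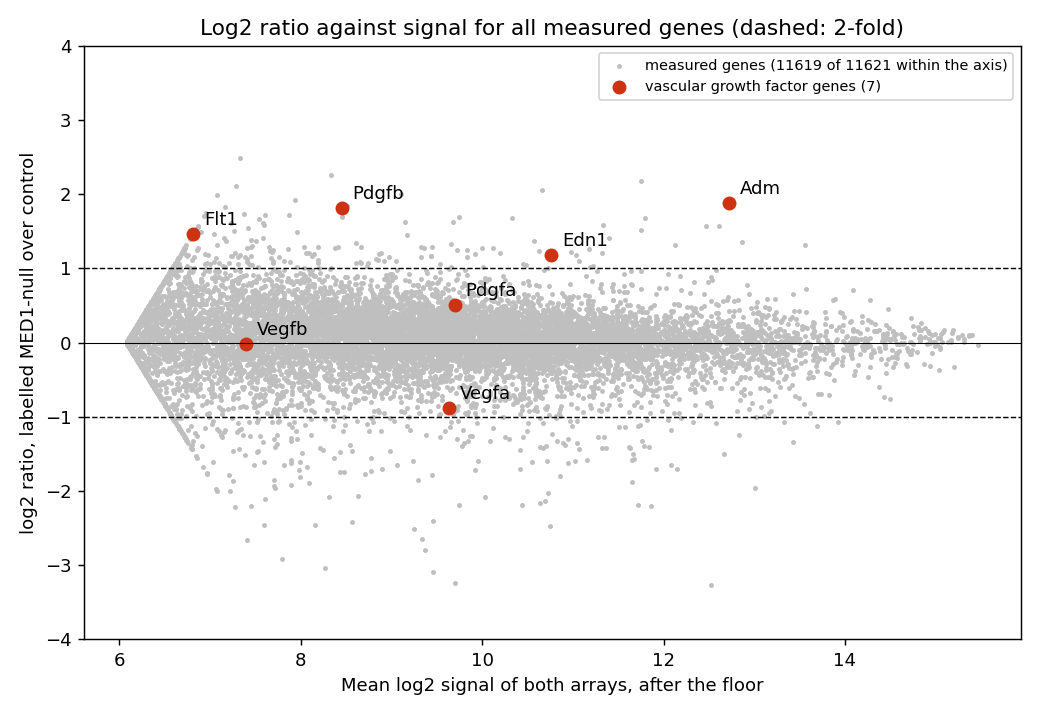
Log2 ratio (labelled MED1-null over control) of each measured gene against its mean log2 signal after the floor, with grey points for 11619 of 11621 genes and red points for the 7 measured members; dashed lines mark 2-fold. Adm, Pdgfb, Edn1 and Flt1 lie above the upper line, Flt1 on the slanted edge that the floor sets, and Vegfa lies just inside the lower line.

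Of 6 VEGF and PDGF receptor and coreceptor genes other than Flt1, 4 were measured, and these 4 lay within 2-fold, with a median log2 ratio of -0.15. Farthest from 0 were Pdgfra, the PDGF receptor alpha, at 156.6 and 126.2 (1.24-fold lower), and Kdr, the main signalling receptor of VEGF-A, at 80.5 and 51.6 (at least 1.19-fold lower). The remaining genes are named after their values were seen. Flt4, the VEGF-C receptor, read 62.6 and 28.1 and Pdgfrb, the PDGF receptor beta, 54.0 and 30.4, both below the floor. The neuropilins, coreceptors of VEGF, read 236.0 and 228.3 (Nrp1) and 980.4 and 1089 (Nrp2). Their probe sets went both ways, from -0.27 to 0.12 (Nrp1) and from -0.37 to 0.78 (Nrp2) in log2 ratio.

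Of 12 genes of adrenomedullin and endothelin receptors and related peptides, 10 had a probe set of a single symbol, which Calca and Ednra lacked. Of these, 9 were measured, none was at least 2-fold higher, 2 were at least 2-fold lower, and the median was -0.05. Adm2, which encodes the related peptide intermedin, read 263.1 and 96.9, 2.71-fold lower, the opposite side from Adm. Ramp3, which turns the calcitonin receptor-like receptor into an adrenomedullin receptor, read 484.7 and 180.6, 2.68-fold lower. The ratios of Adm2 and Ramp3 each rest on 1 probe set. Named after its value was seen, that receptor itself, Calcrl, read 59.2 and 3.1, below the floor on both arrays. Of 12 genes of enzymes that process these factors, 9 were measured and all of these lay within 2-fold, with a median of -0.07. Ccbe1, a cofactor in the cleavage of VEGF-C, read 131.1 and 35.1 (at least 1.94-fold lower), and its probe sets went both ways, from -0.95 to 0.03 in log2 ratio. Pam, the enzyme that amidates adrenomedullin, read 77.9 and 121.4 (1.56-fold higher).

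**Figure D3:**
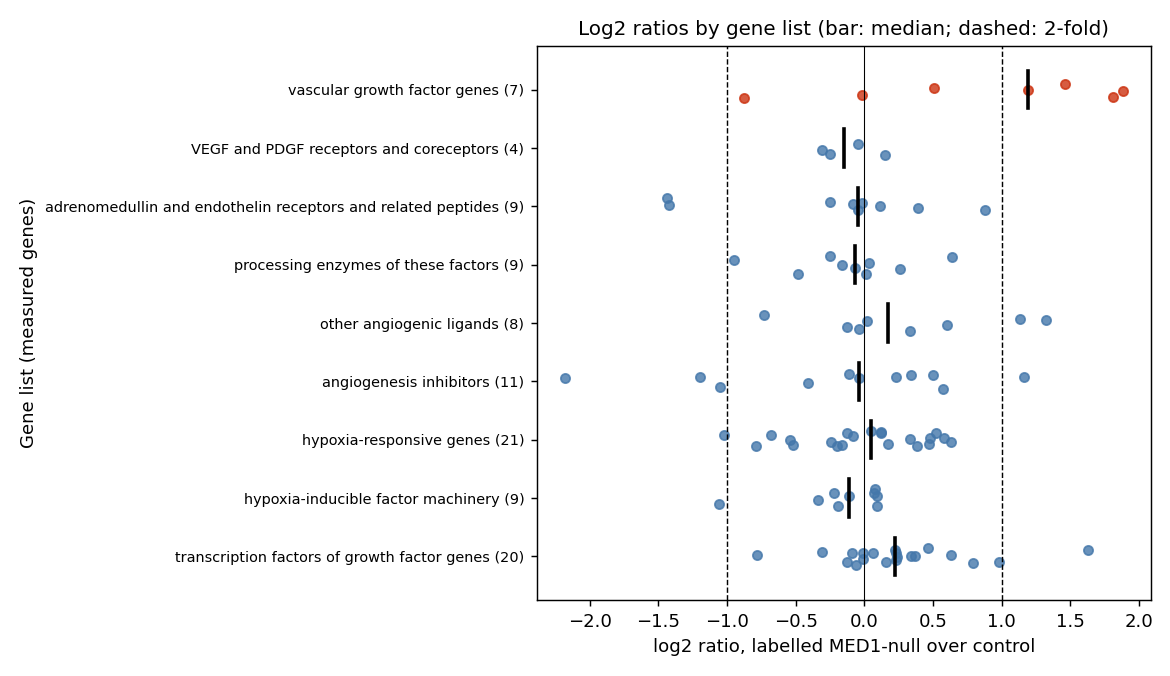
Log2 ratios (labelled MED1-null over control) of the measured genes of each list, 1 point a gene, with a bar at the median, the number of genes in brackets and dashed lines at 2-fold. The members, in red, have a median of 1.19, and the medians of the 8 other lists lie between -0.15 and 0.22. Single genes spread from -0.88 to 1.88 among the members and from -2.18 (Timp2) to 1.63 (Egr2) in the other lists. The members were chosen with these ratios known, so nothing is read from this difference.

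Of 19 other angiogenic ligands, 18 had a probe set of a single symbol and 8 were measured. Among the measured genes, 2 were at least 2-fold higher and none lower, with a median of 0.17. Ccn1, a matrix protein that binds integrins, read 2830 and 7077, and its probe sets had log2 ratios from 0.88 to 1.48. Angptl4, a secreted inhibitor of lipoprotein lipase, read 114.6 and 250.4, 2.19-fold higher. The angiopoietin genes on the list, named after their values were seen, were below the floor on both arrays: Angpt1 at 6.3 and 5.1, Angpt2 at 45.1 and 22.3, and Angpt4 at 34.8 and 65.6.

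Of 14 angiogenesis inhibitors, 13 had a probe set of a single symbol and 11 were measured. Among the measured genes, 3 were at least 2-fold lower and 1 higher, with a median of -0.04. Timp2, an inhibitor of metalloproteinases, read 7195 and 1583, 4.55-fold lower, with probe sets from -2.18 to -1.33 in log2 ratio. The thrombospondin genes went opposite ways: Thbs1 read 1151 and 2567, 2.23-fold higher, and Thbs2 read 155.2 and 28.6, at least 2.29-fold lower. Serpinf1, which encodes pigment epithelium-derived factor, read 140.3 and 29.1, at least 2.07-fold lower, with probe sets from -1.05 to -0.26 in log2 ratio. Thbs2 and Serpinf1 reached the floor only on the control array, so their direction was fixed by that filter. Timp2 was the only gene of the list at least 2-fold lower that reached the floor on both arrays.

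Vegfa and Adm are textbook targets of the hypoxia-inducible factors, and they lay on opposite sides here. The other members were not sorted by whether they are such targets. The counts below depend on which genes were listed, and a part of hypoxia in the differences of the members was not tested. Of 25 other hypoxia-responsive genes, 23 had a probe set of a single symbol and 21 were measured. Among the measured genes, 20 lay within 2-fold (log2 ratios from -0.79 to 0.63), none was at least 2-fold higher and 1 was lower. The median was 0.05 and the mean -0.03, with 11 genes above 0 and 10 below, and the median was -0.02 when the arrays were rescaled to a median ratio of 1. The gene at least 2-fold lower was Ddit4, an inhibitor of mTORC1, at 6683 and 3298 (2.03-fold). Of 9 genes of the hypoxia-inducible factor machinery, all were measured, the median was -0.11, and Cited2, which competes with these factors for coactivators, was the only one beyond 2-fold, at 2891 and 1386 (2.09-fold lower). Hif1a, named after its value was seen, read 10576 and 9784.

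Of 20 transcription factors known to act on growth factor genes, all were measured, 19 lay within 2-fold, 1 was higher and none lower, with a median of 0.22. Egr2, a zinc finger factor of the EGR family, read 322.5 and 999.2 (3.10-fold higher). Its relatives Egr1, at 1173 and 2313 (1.97-fold higher), and Egr3, at 1527 and 2643 (1.73-fold higher), are named after their values were seen. So is Klf2, which lay on the other side at 132.3 and 77.1 (1.72-fold lower). Of the 20 factors, 13 had a log2 ratio above 0 and 7 below. Of all measured genes, 3.86% were beyond 2-fold in either direction. These lists were chosen with earlier results of these data known, so nothing is read from their counts against that share.

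Flt1, Edn1 and Pdgfb are also made by endothelial cells, and markers of other cell types were therefore examined. Of 12 endothelial markers, 8 were below the floor on both arrays, among them the defining Pecam1 (42.1 and 7.6), Cdh5 (34.9 and 54.9) and Tek (30.4 and 1.0), and the summed signal was 621.2 and 756.1. The 2 brightest were Egfl7, at 228.7 and 346.9 with probe sets in both directions, and Kdr. Egfl7 makes up the largest part of the endothelial sum, which takes signals as read and so includes those below the floor. Of 5 lymphatic endothelial markers, only Pdpn, which basal keratinocytes also make, reached the floor (2341 and 1490), and the summed signal was 2472 and 1582.

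The summed signals of stromal cell markers and of melanocyte markers were lower on the MED1-null-labelled array. Fibroblast markers summed to 3445 and 1490, with 3 of 10 below the floor on both arrays and a median log2 ratio of -0.74 over the other 7, which was -1.22 and -1.39 with the floor at the 25th and 75th percentile and -1.24 with no floor. The brightest were Sparc (2709 and 1034), which makes up most of the sum, and Pdgfra, and Col1a1 was below the floor on both. Of the 7 measured fibroblast markers, 6 were lower and 1 was higher. The higher one was Col1a2, named after its value was seen, at 80.3 and 115.3 (1.44-fold). Mural cell markers summed to 4525 and 3160, with 7 of 10 below the floor, Rgs5 and Pdgfrb among them, and Acta2 (3665 and 2481), which makes up most of the sum, and Tagln (431.4 and 153.6) were brightest. The third measured mural marker, Mcam, named after its value was seen, was 1.68-fold higher at 207.6 and 349.3. Melanocyte markers summed to 25370 and 19802, with all 9 above the floor and Tyrp1 (9346 and 6715) and Dct (7568 and 6584) brightest. Of these 9, 7 were lower and 2 higher. Named after their values were seen, Kit was the only one beyond 2-fold, at 409.5 and 136.8 (2.99-fold lower), and Tyr was higher, at 626.6 and 746.8. The probe sets of Tyr went both ways, from -1.26 to 0.25 in log2 ratio. The part of these cells in the differences of the members was not tested.

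Leukocyte markers summed to 3027 and 3502, with 5 of 10 below the floor, Ptprc among them, and Cd68 (2446 and 2799) and Csf1r (164.0 and 228.9) brightest. The probe sets of Csf1r went both ways, from -0.68 to 0.48 in log2 ratio. Platelet markers summed to 1398 and 2077 over 4 genes on the array, with Gp9 below the floor on both. Ppbp (1122 and 1773), which makes up most of the sum, and Itga2b (179.8 and 222.9) were brightest. The third measured platelet marker, Pf4, named after its value was seen, went the other way. It read 82.9 and 41.3 (at least 1.23-fold lower). Keratinocyte markers summed to 169272 and 186158, and Krt14 (32905 and 36849), a keratin of the basal layer, and Perp (31548 and 31472), a desmosomal protein, were brightest. Of 10 keratinocyte markers, Krt1, made by cells above the basal layer, was the only one below the floor on both arrays.

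**Figure D4:**
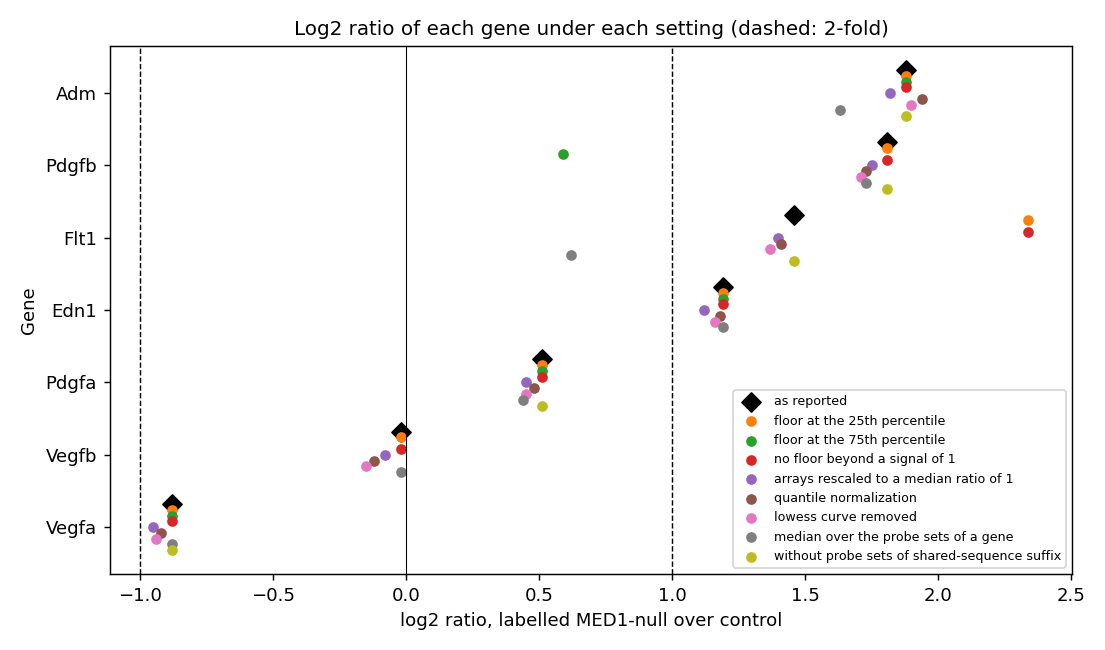
Log2 ratio (labelled MED1-null over control) of the 7 measured members as reported (black diamonds) and under each other floor, rescaling or choice of probe set (circles), with dashed lines at 2-fold; no value is drawn where a setting leaves a gene unmeasured. Each gene keeps its side of 0 under the settings that measure it, Adm and Edn1 stay above 2-fold, and Pdgfb and Flt1 each fall to within 2-fold under 1 setting.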

How the data were processed

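RNA from 2 primary keratinocyte cultures, 1 control and 1 labelled MED1-null, was measured on 1 Affymetrix mouse genome array each. The authors deposited linear signal intensities, computed for each probe set with MAS5 (per the submitters' processing notes) in GeneChip Operating Software (per the design text), whose version is not given in the sources used here. From the values, the trimmed mean (2% cut from either tail) is 500.0 on each array. Detection calls were not used here.

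Of 45101 probe sets, 64 are controls, 34945 have 1 symbol in GEO's platform annotation, 932 several and 9160 none; 34741 were matched by Entrez ID to RefSeq genes of GRCm38.p6, which changed 0 symbols. Signals were floored at 67.7, the log2 ratio of the MED1-null-labelled array over the control array was taken, and each gene was represented by its probe set of highest mean signal. With 1 array per group no test was run. The members, the 8 pathway lists, the 8 marker lists, the named-gene rule and the alternatives were chosen with earlier results of these data known. All members were named, up to 4 genes per pathway list beyond 2-fold (or the 2 farthest from 0 where none was), and the 2 brightest of each marker list; others are marked as named after their values were seen. No gene was named for a pattern like that of a member, since 2 arrays give 1 ratio per gene. Promoter windows are RefSeq sequence. Counting was tested on simulated arrays. Alternatives were floors at the 25th (18.1) and 75th percentile (434.6) or none beyond a signal of 1, 3 rescalings (median ratio, quantiles, lowess with fraction 0.3), 2 other choices of probe set and thresholds of 1.5-fold and 3-fold. Python 3.11.15, numpy 2.4.6, pandas 2.3.3 and statsmodels 0.14.6 were used.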

Additional observations from a re-analysis of the deposited data

How the results depend on the processing

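Under 8 alternatives, each measured member kept the side of 0 it has in the report wherever the alternative measured it: Adm from 1.63 to 1.94 in log2 ratio, Edn1 from 1.12 to 1.19, Pdgfb from 0.59 to 1.81, Flt1 from 0.62 to 2.34, Pdgfa from 0.44 to 0.51, Vegfb from -0.15 to -0.02 and Vegfa from -0.95 to -0.88. The count of members at least 2-fold higher, 4 as reported, was 2 under the 75th percentile floor and 2 at a 3-fold threshold. It was 5 with no floor, where Pgf is added, and 3 with the median over a gene's probe sets, where Flt1 is lost. It was also 3 without probe sets that carry a letter suffix such as _a, _s or _x. That setting leaves Edn1 unmeasured, because its only probe set is 1451924_a_at. The count lower, 0 as reported, was 1 under the 25th percentile floor and with no floor, where it is Vegfc, and 1 at a 1.5-fold threshold, where it is Vegfa. The members' median of 1.19 was 0.33 and 0.59 with the floor at the 25th and 75th percentile, 0.85 with no floor, when the 3 members below the main floor entered, and 0.62 with the median over the probe sets of a gene. Among all genes, 190 higher and 259 lower became 1120 and 934 with the floor at the 25th percentile, 49 and 106 at the 75th, 2229 and 1900 with no floor, 907 and 851 at 1.5-fold and 28 and 73 at 3-fold. Of all genes beyond 2-fold, 57.7% were lower, against 45.5% at the 25th percentile, 46.0% with no floor and 68.4% at the 75th, and 65.5%, 66.5% and 68.7% under the rescalings by median, quantiles and lowess. The medians of the receptor, angiogenic ligand, inhibitor, hypoxia-responsive and endothelial marker lists changed sign under 1, 2, 3, 3 and 1 alternatives. No paired analysis was possible because each group has 1 array. Signal near the floor limits what can be said of Vegfc, Pgf, Pdgfc, Flt1 and the receptors.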
